A study of Mus musculus with 16 samples.

Results

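The Igf2r and Airn imprinted locus lies on mouse chromosome 17 and was examined here through 4 genes, Igf2r, Airn, Slc22a2 and Slc22a3, of 34614 RefSeq protein-coding and lncRNA genes in all. The genes were chosen by name, and CpG positions were counted in their mm10 gene bodies and in 25 bins of 20 kb that run from 200 kb before Igf2r to just past 200 kb after it. The study tracked where DNMT1, the maintenance DNA methyltransferase, acts in E14TG2a mouse embryonic stem cells, using 16 libraries in 7 groups. Electroporation brought Ado-6-azide (1 mM) into the cells, a cofactor analog from which a suitably mutated methyltransferase moves an azide-bearing group to DNA, and genomic DNA was taken 3 h later. DNA that carried the azide was tethered to an oligonucleotide and sequenced from it, so each listed position marks a CpG with at least 1 read. A listed position is read here as labelling by the knock-in enzyme during those hours, not as the methylation level of the site. Wild-type libraries also listed some positions, so a single one can be background.

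The Het group (3 libraries) and the groups of days 0, 2, 4 and 8 (2 libraries each) carried the heterozygous Dnmt1 N1580A knock-in, and the WT group (3 libraries) and the wild-type control group (2 libraries) carried wild-type Dnmt1. Day 0 cells were naive, grown in serum and LIF with the kinase inhibitors CHIR99021 and PD0325901, and the inhibitors were left out during the 8 days of priming that gave the later groups. The culture state of the Het triplicate and what sets the WT and wild-type control groups apart are not in the labels. The labels do not say whether the knock-in line is 1 clone. Nor do they state that replicates came from independent cultures, and the p-values here measure at most the spread between libraries, which may be technical. The tables do not tell the parental alleles apart, so every value below is a sum over the maternal and paternal copies.

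Igf2r encodes the cation-independent mannose 6-phosphate receptor, which carries newly made enzymes to lysosomes and takes up and degrades the growth factor IGF2. In the mouse, Igf2r is expressed mainly from the maternal allele in most tissues, and the long noncoding RNA Airn is transcribed from the opposite strand of the paternal allele, starting inside Igf2r. The Airn promoter belongs to a CpG-rich imprint control region that is methylated on the maternal allele from the egg onward and is kept so by DNMT1. Airn silences Igf2r on the paternal allele, and in extraembryonic tissue also the neighbours Slc22a2 and Slc22a3, which encode transporters of organic cations. In mouse embryonic stem cells the imprint is present while Igf2r is still expressed from both alleles, and allelic expression sets in on differentiation.

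Igf2r spans chr17:12682406-12769706 on the minus strand, and Airn spans chr17:12741311-12859884 on the plus strand. They share chr17:12741311-12769706, so that 28.4 kb of the 87.3 kb Igf2r body is also Airn, and a position there counted for both. Slc22a2 spans chr17:12584189-12628489 on the plus strand. Slc22a3 spans chr17:12419972-12507704 on the minus strand, so the first bins of the window hold only its 5′ part, while its gene body was counted whole. Exons and introns were not used here.

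The promoters of the 4 genes are shown because they are the only stretches of the locus whose bases could be set beside the data. Each runs from 250 bases before to 50 bases after the annotated start, 5′ to 3′ on the gene's own strand, as given by RefSeq for GRCm38.p6, whose coordinates are those of mm10. Capitals mark CpGs listed in at least 1 of the 11 Het and day libraries. The windows are chr17:12769657-12769956 for Igf2r, chr17:12741061-12741360 for Airn, chr17:12583939-12584238 for Slc22a2 and chr17:12507655-12507954 for Slc22a3.
Igf2r: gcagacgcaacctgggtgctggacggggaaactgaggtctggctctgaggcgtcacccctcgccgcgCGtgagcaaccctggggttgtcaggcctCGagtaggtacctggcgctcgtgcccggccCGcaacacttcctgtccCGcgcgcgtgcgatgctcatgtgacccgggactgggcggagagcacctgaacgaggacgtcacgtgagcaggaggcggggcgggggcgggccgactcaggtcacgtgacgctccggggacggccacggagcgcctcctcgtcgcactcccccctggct
Airn: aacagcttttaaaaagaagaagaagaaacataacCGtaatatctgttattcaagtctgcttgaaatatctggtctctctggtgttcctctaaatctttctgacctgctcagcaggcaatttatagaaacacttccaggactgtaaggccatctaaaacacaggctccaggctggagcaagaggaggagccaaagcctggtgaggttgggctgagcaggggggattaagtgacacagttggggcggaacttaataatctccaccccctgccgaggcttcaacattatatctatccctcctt
Slc22a2: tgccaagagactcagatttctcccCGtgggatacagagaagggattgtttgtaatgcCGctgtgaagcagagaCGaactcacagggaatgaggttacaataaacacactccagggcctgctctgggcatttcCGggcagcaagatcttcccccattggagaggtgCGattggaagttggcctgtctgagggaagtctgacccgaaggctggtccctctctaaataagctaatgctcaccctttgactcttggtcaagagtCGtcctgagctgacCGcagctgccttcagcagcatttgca
Slc22a3: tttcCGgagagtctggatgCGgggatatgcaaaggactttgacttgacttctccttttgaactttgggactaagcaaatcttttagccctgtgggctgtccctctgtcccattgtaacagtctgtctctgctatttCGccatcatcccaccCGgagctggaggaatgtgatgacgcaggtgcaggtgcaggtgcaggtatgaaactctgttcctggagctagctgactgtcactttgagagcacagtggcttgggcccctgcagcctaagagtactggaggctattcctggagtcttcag

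The Igf2r promoter held 34 CpGs, of which 4 (11.8%, exact 95% interval 3.30% to 27.5%) were ever listed. Of these, 1 was in day 4 replicate 2 and 3 were in day 8 replicate 2. No Het, day 0 or day 2 library listed a CpG of this promoter. Over all 2701 promoters with 30 to 40 CpGs, 0.846% of CpGs were listed, and 24 of those promoters had a share at or above that of Igf2r. Counts of 1 and 3 CpGs in single libraries do not show a difference between days. The window at the RefSeq start of Airn held only 3 CpGs, of which 1 was listed, in Het replicates 1 and 2 and day 8 replicate 1. The CpG-poor promoters of Slc22a2 and Slc22a3 had 7 of 8 and 4 of 5 CpGs listed. In all promoters with 6 to 10 CpGs 46.1% of CpGs were listed, and in those with 1 to 5 CpGs 59.5%. Airn's imprint control region as a whole was not analysed here, since its borders were in none of the tables used.

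Around the gene starts the counts were also small. Within 1 kb of the Igf2r start, the 3 Het libraries together listed 7 positions, and the 2 libraries of days 0, 2, 4 and 8 listed 0, 1, 8 and 15. A sum of 0 positions on day 0 allows up to 3. Within 5 kb of the Airn start, the sums were 47 positions in Het and 7, 10, 35 and 21 positions on days 0, 2, 4 and 8. As shares, that stretch held 6.33 ± 1.03 PPM in Het (positions per 1000000 positions listed in the library; SD, n = 3), and 8.81 ± 2.04, 3.84 ± 4.31, 7.55 ± 0.803 and 3.63 ± 1.33 on days 0, 2, 4 and 8 (SD, n = 2 each). Per kilobase this is 0.633 PPM in Het and 0.881, 0.383, 0.755 and 0.363 on days 0, 2, 4 and 8, and the same quantity over the whole window was 0.678 to 0.782. CpGs per kilobase were not counted for either stretch. The values of the day libraries overlap, with 0.789 and 6.88 PPM in the 2 day 2 libraries.

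The locus was labelled in cells with the knock-in allele and held next to no reads in wild-type cells. The window held 5918, 8835 and 7638 reads in the Het libraries, against 4, 0 and 7 reads in the WT libraries. The groups did not overlap, and the geometric mean of the count plus 1 was 2154-fold higher in Het (two-sided exact permutation p = 0.1, the smallest value 3 against 3 libraries can give). The fold was 1165 without WT replicate 2 and 3294 without WT replicate 3. The 8 day libraries held 1637 to 4492 window reads, against 11 and 4 reads in the wild-type control, a 399-fold higher geometric mean with an exact permutation p = 0.0222, the smallest that 8 against 2 allows. Without control replicate 1 the fold was 618 and without replicate 2 it was 257 (exact p = 0.111 each, the smallest that 8 against 1 allows). All these folds are of raw counts, not scaled to library totals. Total reads differed widely as well, at 19127067 to 25175264 in Het against 1640 to 19723 in WT. They were 4202118 to 12598003 in the day libraries against 22890 and 8179 in the wild-type control. The folds therefore do not set the locus apart from the rest of the genome. Of the 4 genes, Igf2r had 1 position with 6 reads in wild-type control replicate 1 and no read in the other 4 wild-type libraries. Airn had 2 positions in WT replicate 3 and 2 in wild-type control replicate 1, Slc22a3 had 1 position in WT replicate 3, and Slc22a2 had none. The wild-type libraries held only 1640 to 22890 reads at 960 to 9150 positions in all, so that 3 positions correspond to 328 to 3125 PPM. Shares of the locus in wild-type cells were thus not measurable at this depth, and wild-type libraries enter no comparison of shares.

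The Het and day libraries differed in depth. Totals were 19127067 to 25175264 reads at 1641850 to 3423423 positions in Het, 4202118 and 4875459 reads at 390158 and 407127 positions on day 0, and 8927149 to 12598003 reads at 1267200 to 3065096 positions on days 2 to 8. Reads per listed position were 4.11 and 4.05 on day 8 and 10.8 and 11.98 on day 0. Reads carry no molecular identifiers and reads at 1 position can be copies of 1 molecule, so the number of distinct positions is the main quantity here. Its share is given in PPM, which scales by the positions listed in each library and says nothing of the amount of labelling per cell. Whether this scaling takes out all effects of depth was not tested. Exact intervals, counting intervals and floors cover counting error only. The SE, intervals and p-values of log2 changes come from edgeR fits. The common coefficient of variation beyond counting error in those fits was 0.00988 by positions and 0.488 by reads. The tests by positions therefore took in little spread between libraries beyond counting error.

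Igf2r, the receptor gene, took a smaller share of the listed positions on each later day and in Het than on day 0. It held 124, 260 and 207 positions in Het, 48 and 45 on day 0, 79 and 99 on day 2, 143 and 198 on day 4, and 223 and 183 on day 8. The number of listed positions was thus higher on each later day than on day 0, as it was in the libraries as a whole. As shares these counts are 75.5, 75.9 and 78.4 PPM in Het, 123 and 111 on day 0, 62.3 and 75.7 on day 2, 68.3 and 76.8 on day 4, and 72.8 and 70.3 on day 8. Both day 0 libraries lay above all 9 others, and the others lay between 62.3 and 78.4 with no order of the days beyond their spread. Such a separation is common in these libraries. Of 81607 tested 20 kb bins of the genome, day 0 lay above all others in 12.8% and below all others in 13.6%. The share over all gene bodies was not counted.

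Day 8 against day 0 gave a log2 change of -0.77 ± 0.17 (SE) for Igf2r, with an adjusted p = 0.00115 from edgeR's quasi-likelihood test with Benjamini-Hochberg adjustment over 20415 gene bodies. Of the 4 genes, 1 fell and none rose. Over all gene bodies tested, 2.8% fell and 2.23% rose, or 5.03% in all (455 higher and 571 lower, but 571 higher and 415 lower with library totals in place of TMM scaling). Without day 0 replicate 1 the adjusted p was 0.162 and without day 0 replicate 2 it was 0.0706, at log2 changes of -0.66 and -0.80, so leaving out 1 day 0 library lost the call.

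By reads Igf2r also stood highest on day 0. Igf2r had 72.5, 81.9 and 76.8 RPM (reads per 1000000 reads of the library) in Het, 134 and 119 on day 0, 65.2 and 79.4 on day 2, 63.7 and 81.3 on day 4, and 75.3 and 72.2 on day 8. Again both day 0 libraries lay above every other library. The log2 change in reads on day 8 against day 0 was -0.85 ± 0.17 (adjusted p = 0.0414, edgeR), where 2.51% of 30249 gene bodies were called, 0.721% lower and 1.79% higher (542 higher and 218 lower, or 689 and 154 with library totals). By reads Igf2r changed by -0.83 on day 2 (adjusted p = 0.0537, with 0.919% of gene bodies called) and by -0.88 on day 4 (adjusted p = 0.0393, with 2.93% called). The day 8 call by reads was lost with only the 4 libraries compared (edgeR adjusted p = 0.171), where 0 of 27570 gene bodies were called. It was also lost without any 1 of the 6 libraries of days 2, 4 and 8, where next to no gene body was called. It held when day 0 replicate 1 or replicate 2 was left out, where far more gene bodies were called than in the main fit.

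**Figure D1:**
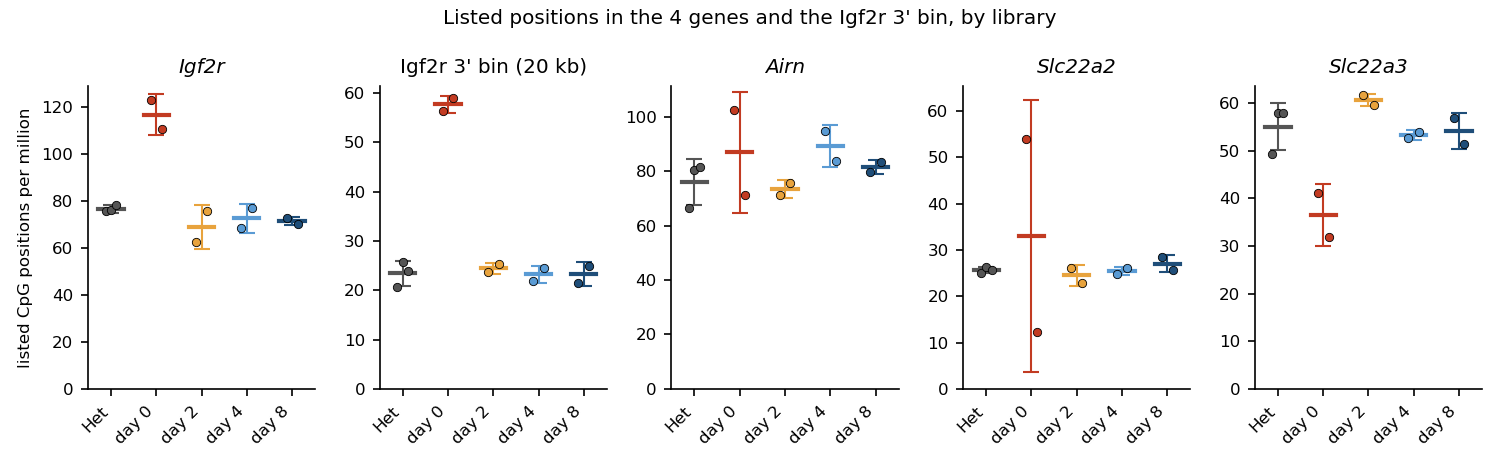
Listed CpG positions in PPM (positions per 1000000 positions of the library) in Igf2r, its 3′ bin of 20 kb, Airn, Slc22a2 and Slc22a3, for Het (3 libraries) and days 0, 2, 4 and 8 (2 libraries each). Points are libraries, thick lines group means and error bars SD. In Igf2r the 9 Het and day 2 to 8 libraries (62.3 to 78.4) lie below both day 0 libraries (123 and 111), and in Slc22a2 they lie between the 2 day 0 libraries (53.8 and 12.3).

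The other contrasts that use the same 2 day 0 libraries are not independent of the first. Igf2r changed by -0.79 ± 0.19 on day 2 (adjusted p = 0.00785) and by -0.76 ± 0.18 on day 4 (adjusted p = 0.00188), where 1.15% and 4.45% of all gene bodies were called. Het against day 0 gave -0.66 ± 0.17 (adjusted p = 0.00599), with 4.26% called in a fit of 23106 gene bodies over 11 libraries (455 higher and 529 lower, or 594 and 403 with library totals). Without day 0 replicate 1 or 2 the Igf2r value was not called in any of these contrasts (adjusted p = 0.294 and 0.176 on day 2, 0.191 and 0.0868 on day 4, 0.250 and 0.128 for Het), and on day 2 it was not called without day 2 replicate 1 either (log2 change -0.62, adjusted p = 0.162).

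Day 8 against day 2 and Het against day 8, the contrasts fitted without a day 0 library, showed no call in the locus. Other pairs of groups without day 0 were not fitted. Day 8 against day 2 changed Igf2r by 0.02 (95% interval -0.23 to 0.27, adjusted p = 0.983), where 0.225% of gene bodies were called, and by -0.02 in reads, where 0.00331% were called. Het against day 8 gave 0.09 (95% interval -0.09 to 0.27), where 0.0% of gene bodies were called by edgeR, with 837 at an unadjusted p below the threshold and 0 called by DESeq2. These intervals leave out a change as large as that against day 0, and do not show that the groups are alike.

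Airn, the antisense noncoding RNA, did not pass the test in any contrast. It held 109, 275 and 215 positions in Het, 40 and 29 on day 0, 90 and 99 on day 2, 198 and 216 on day 4, and 244 and 217 on day 8. Its shares were 66.4, 80.3 and 81.4 PPM in Het, 103 and 71.2 on day 0, 71.0 and 75.7 on day 2, 94.6 and 83.8 on day 4, and 79.6 and 83.4 on day 8. Day 0 replicate 1 lay above every other library and day 0 replicate 2 within their range. Day 8 against day 0 gave a log2 change of -0.16 ± 0.19 (95% interval -0.52 to 0.21, adjusted p = 0.719), and Het against day 0 gave -0.21 ± 0.18 (adjusted p = 0.584). The sign of these small values turned under some settings, among them leaving out day 0 replicate 1. Per kilobase, Airn held a mean of 0.687 PPM on day 8 and 0.733 on day 0, beside 0.819 on day 8 and 1.34 on day 0 in Igf2r. CpGs per kilobase of the gene bodies were not counted, so these values do not compare labelling per CpG.

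Slc22a2, an organic cation transporter gene on the 3′ side of Igf2r, differed more between the 2 day 0 libraries than between any others. It held 41, 90 and 68 positions in Het, 21 and 5 on day 0, 33 and 30 on day 2, 52 and 67 on day 4, and 87 and 67 on day 8. As shares, the 9 Het and day 2 to 8 libraries lay between 22.9 and 28.4 PPM, against 53.8 and 12.3 on day 0. Its log2 change on day 8 against day 0 was -0.33 ± 0.31 (adjusted p = 0.624), and it turned to 1.11 without day 0 replicate 1 and to -1.002 without replicate 2, with neither called (adjusted p = 0.363 and 0.197, and 0.197 to 0.843 over all settings). In reads, day 8 against day 0 gave -0.69 ± 0.31 (edgeR adjusted p = 0.231). This was called only without day 0 replicate 2 (log2 change -1.03), where far more of all gene bodies were called as well.

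Slc22a3, the second organic cation transporter gene of the locus, had positive values against day 0 but did not pass the test. It held 81, 198 and 153 positions in Het, 16 and 13 on day 0, 78 and 78 on day 2, 110 and 139 on day 4, and 174 and 134 on day 8. As shares, the 9 Het and day 2 to 8 libraries held 49.3 to 61.6 PPM, against 41.01 and 31.9 on day 0, and the groups did not overlap. Among tested 20 kb bins of the genome, 13.6% also had day 0 below all others. The log2 change on day 8 against day 0 was 0.51 ± 0.26 (95% interval -0.00287 to 1.02, adjusted p = 0.285), and it did not pass the test on day 2 (0.70, adjusted p = 0.222), on day 4 (0.47, adjusted p = 0.353) or in Het (0.56, adjusted p = 0.212). In reads the change was 0.42 ± 0.24 (edgeR adjusted p = 0.345). It was called only without day 0 replicate 1 (log2 change 0.87), where far more of all gene bodies were called as well.

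Where Igf2r and Airn overlap, positions cannot be given to either gene, so both were split into 3 segments that were fitted with all gene bodies. The part of Igf2r that Airn does not cover, its 3′ 58.9 kb, held 57.9, 57.8 and 56.4 PPM in Het, 97.4 and 95.8 on day 0, 54.5 and 59.6 on day 2, 46.8 and 56.3 on day 4, and 56.8 and 52.2 on day 8. Both day 0 libraries again lay above every other library. This segment fell by 0.89 ± 0.19 on day 8 against day 0 (adjusted p = 0.000705), by 0.80 on day 2 (adjusted p = 0.0213), by 0.97 on day 4 (adjusted p = 0.000227) and by 0.81 in Het (adjusted p = 0.00187), on the log2 scale. By reads it fell by 1.06 ± 0.20 on day 8 (adjusted p = 0.0357). Leaving out day 0 replicate 1 or 2 lost the calls by positions on day 8 (adjusted p = 0.0783 and 0.0976) and in Het (0.107 and 0.140), and leaving out any 1 library of days 2, 4 and 8 lost the call by reads (0.0880 to 0.274).

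The shared segment held 17.7, 18.1 and 21.96 PPM in Het, 25.6 and 14.7 on day 0, 7.89 and 16.1 on day 2, 21.5 and 20.6 on day 4, and 15.99 and 18.1 on day 8, with the day 0 libraries on either side of most others. Its log2 change on day 8 against day 0 was -0.31 ± 0.39 (95% interval -1.07 to 0.45, adjusted p = 0.739). The part of Airn outside Igf2r held 63.6 and 65.3 PPM on day 8, against 76.9 and 56.5 on day 0, with a log2 change of -0.11 ± 0.21 (adjusted p = 0.839). Neither segment was called in Het against day 0 (adjusted p = 0.918 and 0.582). The difference between the segments was not tested.

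**Figure D2:**
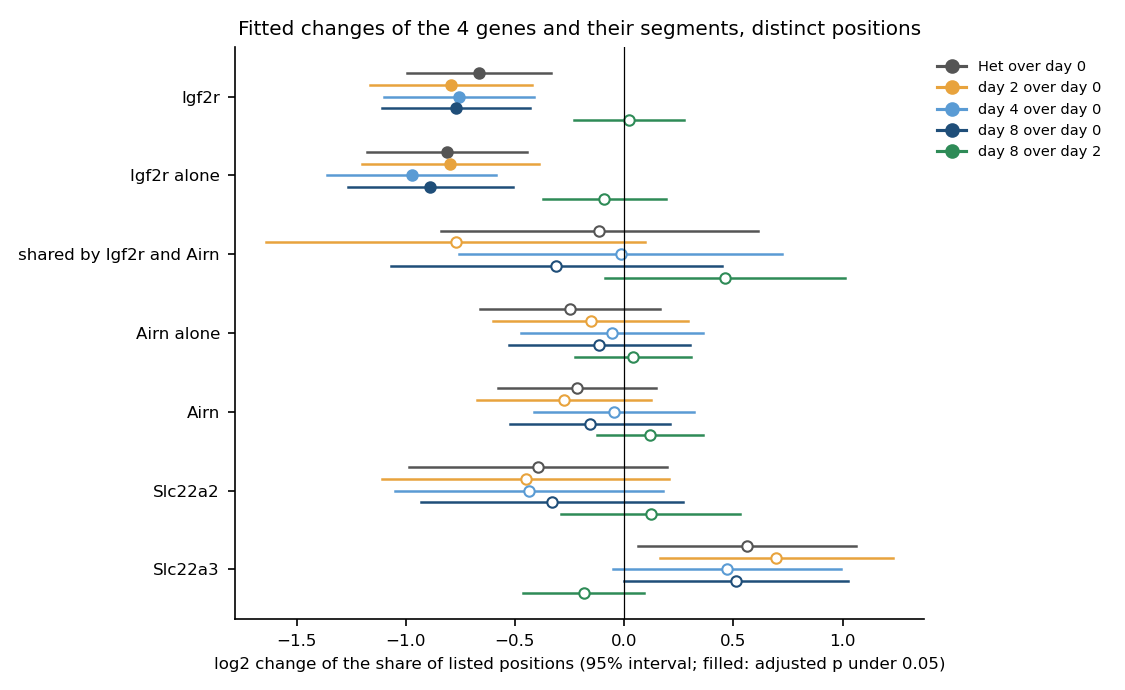
Fitted log2 changes in the share of listed positions (x axis) for the 4 genes and the 3 segments of Igf2r and Airn (rows), with 95% intervals; colours are the 5 contrasts, and filled points passed an adjusted p of 0.05. Filled points stand only in the rows of Igf2r and of Igf2r alone (-0.66 to -0.97), all in contrasts that share the 2 day 0 libraries, and the green points of day 8 over day 2 are open in every row.

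Of the 20 kb bins of the window, the one at the 3′ end of Igf2r was called lower on day 8 than on day 0. The bin chr17:12682406-12702405, which is the last 20 kb of the gene and lies outside Airn, held 34, 88 and 63 positions in Het, 22 and 24 on day 0, 30 and 33 on day 2, 46 and 63 on day 4, and 66 and 65 on day 8. As shares, it held 20.7, 25.7 and 23.9 PPM in Het, 56.4 and 58.9 on day 0, 23.7 and 25.2 on day 2, 21.98 and 24.5 on day 4, and 21.5 and 24.97 on day 8. The 9 libraries outside day 0 lay within 20.7 to 25.7 at totals of 1267200 to 3423423 positions, and the day 0 libraries had totals of 390158 and 407127. Its log2 change on day 8 against day 0 was -1.26 ± 0.27 (adjusted p = 0.00115 over 81607 bins).

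This was 1 of 25 bins of the window called, and over the genome 1.87% of bins were called, 1.23% lower and 0.637% higher. It was also the bin called on day 2 (-1.20, adjusted p = 0.0252) and on day 4 (-1.25, adjusted p = 0.00193), where 0.239% and 1.57% of all bins were called. No bin of the window was called on day 8 against day 2, where the genome gave 0.0098%. The call on day 8 was lost without day 0 replicate 1 (adjusted p = 0.0926), without day 0 replicate 2 (adjusted p = 0.167) and with only the 4 libraries compared (adjusted p = 0.0615). With 10 kb bins the change in the bin that begins at the middle of this stretch was -1.71, and with 50 kb bins it was -0.87, both called. The change in the other 10 kb of the stretch is not given here. That part holds the 2 kb steps, described below, in which day 0 was not highest.

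**Figure D3:**
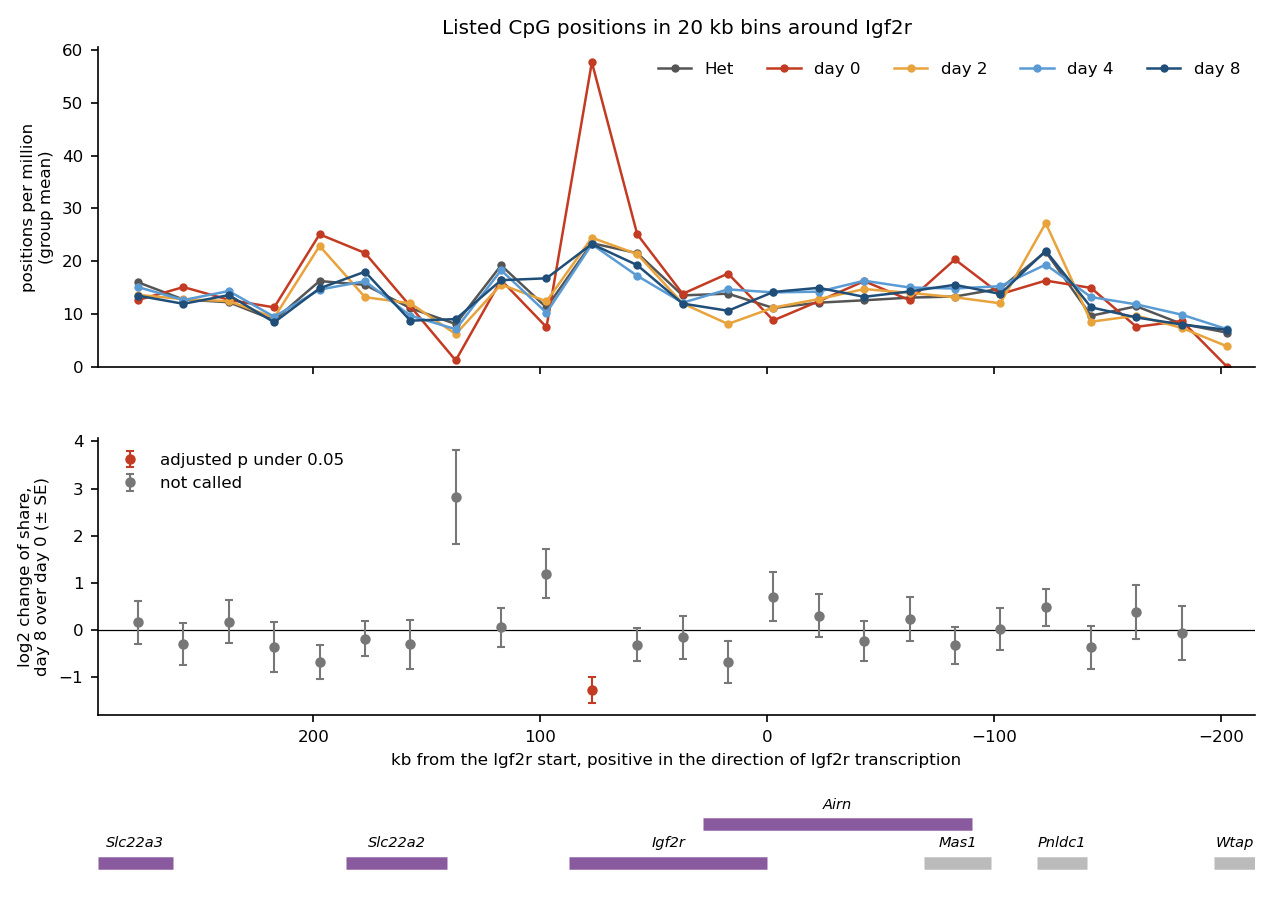
Top: listed positions in PPM (group means) in 20 kb bins of the window, against distance from the Igf2r start in kb (positive towards its 3′ end), for Het and days 0, 2, 4 and 8; middle: log2 change of day 8 over day 0 with SE for the 24 bins that hold a day 0 position; bottom: the bodies of some genes of the window, with the 4 described genes in purple. In the bin at the 3′ end of Igf2r the Het and day 2 to 8 groups stand at 23.2 to 24.5 and day 0 at 57.7, and that bin is the one called.

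The bin was singled out after its values were seen, so what follows describes it without a test. Of the Igf2r positions, 27.4% to 38.0% lay in this bin in the 9 Het and day 2 to 8 libraries, against 45.8% (exact 95% interval 31.4% to 60.8%) and 53.3% (37.9% to 68.3%) on day 0. The bin makes up 22.9% of the gene's length. Its share of the gene's CpGs was not examined, so a share of positions above that of length need not mean stronger labelling. The rest of the gene held 38.7 to 54.8 PPM in those 9 libraries and 66.6 and 51.6 on day 0, so that day 0 replicate 2 lay within their range. In the next bin of the gene, chr17:12702406-12722405, both day 0 libraries (25.6 and 24.6 PPM) also lay above the other 9 (15.4 to 24.4 PPM), and its log2 change of -0.30 ± 0.35 on day 8 against day 0 was not called (adjusted p = 0.754). The difference between the 3′ bin and the rest of the gene was not tested. Over the genome, 1383 of 126820 bins, or 1.09%, had a higher day 8 mean than this bin, while 43, or 0.0339%, had a higher day 0 mean. It held the highest mean share of positions of the window's bins on days 0, 4 and 8 and in Het, and ranked 2 on day 2. The CpG density of the bins was not examined.

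The day 0 positions of this bin were spread over it. In 10 steps of 2 kb, 9 held a position in both day 0 libraries, and in 8 the day 0 mean exceeded every other library's share. A step held only 0 to 5 positions in a day 0 library, where 1 position is 2.56 PPM (replicate 1) or 2.46 PPM (replicate 2). The replicates shared 3 of their 22 and 24 positions, and 34 of the 43 distinct day 0 positions recurred in another library. Reads per position in the bin were 4.09 on day 8 and 13.3 on day 0, beside 10.8 and 11.98 over all positions of the day 0 libraries. The part in this result of the small number of positions listed on day 0 was not tested.

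**Figure D4:**
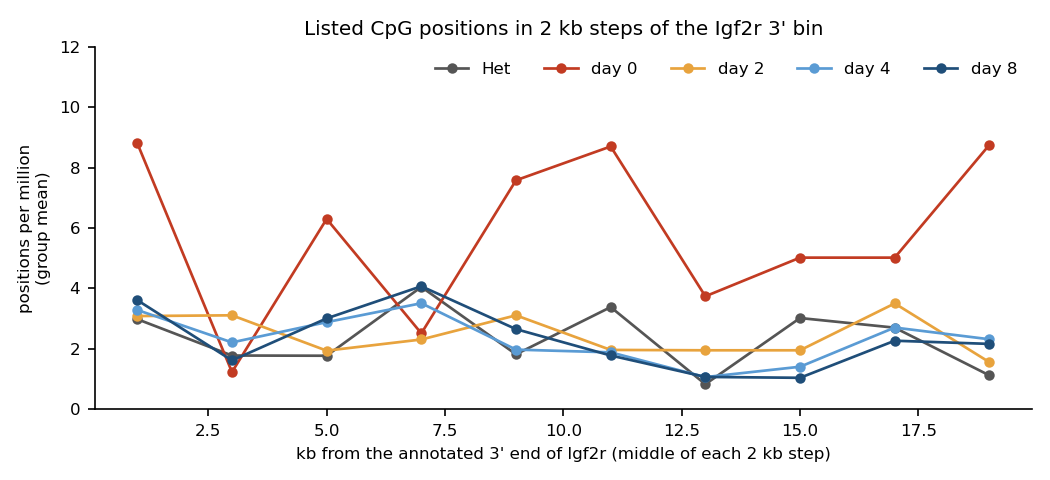
Listed positions in PPM (group means) in 2 kb steps over the last 20 kb of Igf2r, against distance from its annotated 3′ end in kb, for Het and days 0, 2, 4 and 8. The Het and day 2 to 8 groups stay at or below 4.07 in every step, and day 0 is highest in 8 of 10 steps, at 3.74 to 8.81. The day 0 means rest on 0 to 5 positions per step and library.

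In the rest of the window, 24 bins were tested and none was called. In the 23 of them that held a day 0 position, the log2 change on day 8 against day 0 ran from -0.67 to 2.82. The highest was the bin chr17:12622406-12642405 at the 3′ end of Slc22a2, with 51 positions on day 8 and 1 on day 0, a 7.17-fold higher share (counting interval 1.23 to 289, adjusted p = 0.108). The last bin, chr17:12962406-12982405, held 40 positions on day 8 and 0 on day 0 (edgeR adjusted p = 0.0590). As a lower bound, its share was 1.88-fold higher when 3 positions are set over both day 0 libraries, leaving out the counting error of day 8. Outside the Igf2r 3′ bin the window held 311 ± 12.9 PPM in Het (SD, n = 3), 314 ± 15.7 on day 8 and 324 ± 78.9 on day 0 (SD, n = 2 each). Both day 0 libraries lay above all others in 3 bins and below all others in 4 of the 25, which is near the genome, where day 0 lay above all others in 12.8% and below all others in 13.6% of 81607 tested bins, and where 1.87% of bins were called.

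Beside the 4 genes, 8 protein-coding genes of the window were examined, of which 5 had enough positions to be tested. They are Mas1, a G protein-coupled receptor gene, Pnldc1, which codes for an exonuclease that trims piRNAs, the acetyl-CoA acetyltransferase genes Acat3 and Acat2, and Wtap, which codes for a subunit of the RNA adenosine methylation complex. Of these 5, Wtap was called. It held 9, 26 and 25 positions in Het, none in either day 0 library, 5 and 3 on day 2, 14 and 23 on day 4, and 25 and 18 on day 8. With 3 positions set over both day 0 libraries, its share was 2.02-fold higher on day 8 than on day 0 (edgeR adjusted p = 0.0350). On day 4 it was 2.11-fold higher (edgeR adjusted p = 0.0352). These folds are lower bounds, since a day 0 sum of 0 allows up to 3 positions, and they leave out the counting error of the later days. By reads Wtap was also called (adjusted p = 0.0433), while the call by positions was lost in 7 of 14 other settings, among them leaving out either library of day 0 or day 8 or day 4 replicate 2 (adjusted p = 0.0535 to 0.285). The remaining 4 had log2 changes of -0.37 to 0.029 and were not called (adjusted p = 0.623 to 0.987). Mrgprh, Mrpl18 and Tcp1, which hold 0 to 14 positions a library, were tested on day 8 against day 0 by reads alone and not called (adjusted p = 0.684 to 0.977), and Tcp1 was not called by positions in Het against day 0 (adjusted p = 0.797).

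Which CpGs of the locus were listed varied from library to library. The window had 3639 distinct positions over the 11 Het and day libraries, of which 1543 (42.4%) were in 1 library only and 26 in 6 or more. Over the genome 49.4% of 11843512 positions were in 1 library only. In Igf2r the day 8 replicates shared 51 positions, 22.9% and 27.9% of their own, beside 18.4% and 21.6% over the genome. The day 0 replicates shared 3, or 6.25% and 6.67%, beside 5.16% and 4.94%. The most often listed CpG of the 4 genes was at chr17:12816560 in Airn, in 8 of 11 libraries with 66 reads in all and none on day 0. In Igf2r the CpGs at chr17:12692105, in the 3′ bin, and at chr17:12714599 were each listed in 7 libraries. Presence of a given CpG in 1 library and absence from another is therefore not a difference in labelling at this depth.

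Of 3 gene lists that hold relatives of the locus, each is given by counts and its median on day 8 against day 0 by positions, beside a median of 0.03 over all 20415 gene bodies, of which 2.8% fell and 2.23% rose. The lists' counts were not tested against these shares. Of 22 genes of IGF signalling and of the mannose 6-phosphate pathway, 18 were tested, 1 rose, 1 fell and 16 were not called, with a median of -0.14. Igf1r, the receptor tyrosine kinase that answers to IGF1 and IGF2, fell by 0.44 ± 0.10 on the log2 scale (adjusted p = 0.000933), with 1516 positions on day 8 and 277 on day 0, or means of 267 PPM on day 8 and 347 PPM on day 0. Without day 0 replicate 2 it was not called (log2 change -0.32, adjusted p = 0.287). Irs2, an adaptor that binds the activated receptors, rose, with 133 positions on day 8 and 2 on day 0, a 9.35-fold higher share (counting interval 2.54 to 78.04, adjusted p = 0.000534), and was not called without day 0 replicate 1 (adjusted p = 0.137). By reads the same 2 of 22 genes were called (adjusted p = 0.0204 for Igf1r and 0.0428 for Irs2), with a median of -0.12 beside 0.18 over all genes.

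Of 15 hosts of other maternally methylated germline imprint regions, 14 were annotated and 11 tested, and 2 fell and none rose, with a median of -0.05. Peg3, which codes for a zinc finger protein made from the paternal allele, had 125 positions on day 8 and 35 on day 0 and fell by 1.06 ± 0.29 (adjusted p = 0.0137). Peg13, a noncoding RNA gene inside Trappc9, had 57 positions on day 8 and 22 on day 0 and fell by 1.52 ± 0.39 (adjusted p = 0.00630), and its reads are those of Trappc9 as well. Without day 0 replicate 1 neither was called, and Peg13 changed by -0.58 (adjusted p = 0.741) and Peg3 by -0.77 (adjusted p = 0.384). Peg3 was also not called without day 0 replicate 2 (adjusted p = 0.0932) or day 8 replicate 1 (adjusted p = 0.0523). By reads none of 12 was called on day 8, and Peg3 had an adjusted p = 0.0674. Of 22 Slc22 genes outside the locus, 20 were tested, 2 fell and none rose, with a median of -0.14. Those that fell were Slc22a13 (-1.42 ± 0.38, adjusted p = 0.0111) and Slc22a16, the homologue of a human carnitine transporter gene (-0.99 ± 0.28, adjusted p = 0.0156), and by reads neither was called (adjusted p = 0.0926 and 0.0670). Leaving out day 0 replicate 1 or replicate 2 lost both calls by positions (adjusted p = 0.183 to 0.292), and that of Slc22a16 was also lost without day 8 replicate 2 (adjusted p = 0.0832). On day 8 against day 2 no gene of the 3 lists was called by positions or by reads.

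Over the 11 Het and day libraries, the 3 gene bodies outside the window whose log2 share of positions followed that of Igf2r most closely were Zfyve26 on chromosome 12 (r = 0.975), Gnai1 on chromosome 5 (r = 0.973) and Kif1c on chromosome 11 (r = 0.973). They were the closest of all gene bodies tested, so their likeness is a description, and all libraries share the totals to which positions were scaled. Zfyve26, which codes for a protein of endosome and lysosome biology, held 44.2 to 58.2 PPM in the 9 Het and day 2 to 8 libraries and 84.6 and 71.2 on day 0.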

How the data were processed

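Azide-labelled DNA was read out on the Ion Proton platform, per the labels' protocols, and cutadapt 4.4, BWA 0.7.17-r1188 and SAMtools 1.12 are named in the submitters' processing notes, with build mm10. The deposited tables hold whole-number read counts per CpG position, made by the authors with no normalization, 1 table a library. Filters on positions and the strand of reads are not stated. Reads and distinct positions were summed in RefSeq (GRCm38.p6) gene bodies and in 20 kb bins with Python 3.11.15, pandas 2.3.3 and numpy 2.4.6.

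Differences were tested with edgeR 4.0.16 in R 4.3.3 (TMM on library totals, filterByExpr, quasi-likelihood test) on all gene bodies or bins of the 8 day libraries, or of these and the 3 Het libraries, with Benjamini-Hochberg adjustment over all features and a threshold of 0.05. TMM factors were 0.962 to 1.03. Intervals of log2 changes (95%) use the normal approximation. Signal in wild-type libraries was compared with two-sided exact permutation tests (scipy 1.17.1). The procedure was also run on simulated counts drawn with the dispersion of the fits. Such counts cannot show how the tests behave under a larger spread between libraries. Figures were drawn with matplotlib 3.10.9.

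The locus, its 4 genes and the gene lists were chosen with earlier results of these data known, and the 3′ bin was singled out after its values were seen. Besides the 4 genes, the text names the segments of Igf2r and Airn, other genes of the window, up to 3 called genes each way of each list, and the 3 gene bodies most correlated with Igf2r. Alternatives were library totals or RLE scaling, no filter, a replicate block, positions with 2 or more reads, each library left out, the 4 libraries compared alone, DESeq2 1.42.0 for genes, and other bin grids. Not every gene of the window is reported here.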

Additional observations from a re-analysis of the deposited data

How the results depend on the processing

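Counts of called features moved with the tool and the libraries more than the direction of the Igf2r values did. For gene bodies by reads on day 8 against day 0 (760 called), DESeq2 called 5298, the replicate block 127, the 4 libraries alone 0 (edgeR, with 4073 at an unadjusted p under 0.05), and leaving out 1 library 0 to 7654. By distinct positions, DESeq2 called 492 on day 8, 448 on day 4 and 113 on day 2 against day 0, 634 for Het against day 0 and 1 on day 8 against day 2, the 4 libraries alone 429 on day 8, and positions with 2 or more reads 14 on day 8 against day 2. Leaving out 1 library gave 185 to 928 on day 8, 178 to 847 on day 4, 32 to 233 on day 2, 184 to 946 for Het against day 0 and 2 to 50 on day 8 against day 2. For 20 kb bins the counts were 1013 with 2 or more reads, 179 with the 4 libraries alone, 961 with 10 kb bins and 138 to 1297 without 1 library.

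The replicate numbers do not pair the libraries, as correlations of replicate differences between groups were -0.0200 to 0.0173. With the replicate block, Igf2r changed by -0.85 in reads on day 8 (adjusted p = 0.0685), as it did with the 4 libraries alone (-0.85, adjusted p = 0.171), and Igf2r alone by -1.05 (adjusted p = 0.0601) and -1.06 (adjusted p = 0.171). No other call of a named gene, segment or bin changed under the block. The 3′ bin changed by -1.25 with the 4 libraries alone.

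Without 1 library at a time, Igf2r by positions stayed between -0.80 and -0.66 on day 8, -0.83 and -0.64 on day 4, -0.89 and -0.62 on day 2 and -0.71 and -0.57 for Het against day 0, and in reads between -0.93 and -0.76. Igf2r alone stayed between -0.92 and -0.82 by positions, -0.84 and -0.78 for Het against day 0 and -1.16 and -0.96 in reads. The 3′ bin stayed between -1.34 and -1.12. Slc22a3 ranged from 0.084 to 0.87 and Slc22a2 from -1.03 to -0.24 in reads. Values without a call that changed sign were Slc22a2 (-1.002 to 1.11 on day 8, -1.11 to 1.004 on day 4, -1.12 to 0.99 on day 2, -1.09 to 1.02 for Het against day 0), Airn by positions (-0.35 to 0.16, -0.24 to 0.27, -0.46 to 0.044 and -0.43 to 0.082 in the same order) and in reads (-0.34 to 0.33), the shared segment (-0.61 to 0.17, -0.43 to 0.35 for Het against day 0, -0.46 to 1.02 in reads), Airn alone (-0.27 to 0.16, -0.43 to 0.0034 for Het against day 0, -0.31 to 0.19 in reads), Igf2r on day 8 against day 2 (-0.11 to 0.16), Slc22a3 in Het against day 8 (-0.00921 to 0.10), Mas1 (-0.995 to 1.29), Pnldc1 (-0.61 to 0.040), Acat3 (-0.21 to 0.41) and Acat2 (-0.54 to 0.40). Sign changes with all libraries were Airn by library totals (0.027 in reads on day 8 and 0.035 by positions on day 4), Airn on day 4 with no filter (0.027) and with 2 or more reads (0.060), and, with 2 or more reads, the shared segment in Het against day 0 (0.038), Slc22a3 in Het against day 8 (-0.023), Acat3 (-0.25) and Acat2 (0.16). The window folds over wild type ran from 1165 to 3294 for Het and from 257 to 618 for the days without 1 library. The causes were not tested. The 4 genes held 5 to 48 positions in a day 0 library, and small changes against day 0 were not detectable at this depth.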
